A study of Homo sapiens with 4 samples.

Results

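To describe TGF-beta signaling at the mRNA level in tumor spheroids, 10 genes were read from the RNA-seq data of SKOV3, a long-established line of human ovarian cancer cells. The genes encode the ligands TGFB1, TGFB2 and TGFB3, the receptors TGFBR1, TGFBR2 and TGFBR3, the signal transducer SMAD3, and SMAD7, TGFBI and SKIL, which TGF-beta induces in many cells. They were listed by name, with earlier results of these data known, and all 10 were found among the 19475 gene symbols of the file. Each gene was represented by the RefSeq transcript whose mean over the 4 libraries was highest. The control group consisted of 2 libraries of cells on a tissue culture plate (TCP), which the labels place at day 0. The other group consisted of 2 libraries of spheroids cultured on polymer X, a polymer thin film that coats the plate, for 8 days. The labels name no genetic change and no drug in either group. The study's methods keep SKOV3 in fetal bovine serum and culture spheroids in serum replacement, whereas the labels state serum replacement for all libraries. The effects of the substrate and of the days in culture cannot be told apart, and the medium of the TCP cells is uncertain.

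TGF-beta ligands are secreted in a latent form, bound to their own propeptide and often to a latent TGF-beta binding protein that tethers them to the extracellular matrix. After release, the ligand brings together the type II receptor (TGFBR2) and the type I receptor (TGFBR1), which phosphorylates SMAD2 and SMAD3. These enter the nucleus with SMAD4 and bind short DNA elements. SMAD7 and SKIL are induced by the pathway and restrain it. In epithelial cancers, TGF-beta is known for its effects on growth arrest, matrix synthesis and epithelial-mesenchymal transition. The study had placed SMAD binding elements before GFP to read this pathway in SKOV3 cells. Among its reporters of several pathways, read after 8 days on polymer X, the paper's text names a GFP signal for the STAT3 reporter. It gives no separate value for the SMAD reporter.

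The values were FPKM, that is, sequenced tags scaled by transcript length and by the total tags of the library, so levels can be compared between genes. Library depth, recovered from the steps between low values, lay between 38404000 and 44917000 tags. Across 11964 tested genes, the correlation of log2 values was 0.998 between the TCP replicates, 0.997 between the polymer X replicates and 0.854 to 0.862 between groups. SKOV3 markers were high for KRT8, KRT18, ERBB2 and PAX8 and were under an FPKM of 1 in every library for KRT19, WT1 and MUC16. KRT8 was lower on polymer X (146 and 143, against 262 and 269 on TCP), as was KRT18. ERBB2 was higher there (913 and 860, against 198 and 206), as was PAX8. EPCAM lay between 0.104 and 0.168 on TCP and between 1.32 and 1.39 on polymer X. Of the 5 fibroblast and pericyte markers, DCN reached an FPKM of 1 in the spheroids (7.26 and 6.20, against 0.025 and 0 on TCP). The summed level of that list was 0.930 to 1.08 on TCP and 6.93 to 8.06 on polymer X, where almost all of it was DCN. RGS5 was lower on polymer X (0.387 and 0.415, against 0.709 and 0.579 on TCP), as was THY1. PDGFRA was higher there (0.254 and 0.291, against 0.103 and 0.084), and PDGFRB overlapped between the groups. The 4 leukocyte markers summed to 17.1 to 17.4 on TCP and to 42.8 to 45.7 on polymer X, almost all of it CD68, with PTPRC at or under 0.530 and CD3E at 0. The 4 endothelial markers summed to at most 0.832 in any library.

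TGFB1 and TGFB2 changed in opposite directions. TGFB1 (NM_000660, hg19 chromosome 19, 41836228 to 41859788) encodes the most widely expressed ligand, and TGFB2 (NM_003238, chromosome 1, 218518626 to 218617961) encodes a ligand known from embryonic development. The sequence upstream of both is shown here because these were the members called higher and lower on polymer X. The RefSeq promoter windows (GRCh38.p14) run from 250 bases before the transcription start to 50 bases after it, on the strand of the gene. Capitals mark a match to CAGACA, the SMAD element of the study's reporter.

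TGFB1, chr19:41353873-41354172, minus strand: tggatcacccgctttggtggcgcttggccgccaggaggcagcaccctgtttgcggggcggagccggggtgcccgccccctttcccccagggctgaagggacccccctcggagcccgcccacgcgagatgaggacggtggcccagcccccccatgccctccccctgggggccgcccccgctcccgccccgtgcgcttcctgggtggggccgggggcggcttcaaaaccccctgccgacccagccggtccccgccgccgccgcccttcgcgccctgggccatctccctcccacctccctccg
TGFB2, chr1:218345086-218345385, plus strand: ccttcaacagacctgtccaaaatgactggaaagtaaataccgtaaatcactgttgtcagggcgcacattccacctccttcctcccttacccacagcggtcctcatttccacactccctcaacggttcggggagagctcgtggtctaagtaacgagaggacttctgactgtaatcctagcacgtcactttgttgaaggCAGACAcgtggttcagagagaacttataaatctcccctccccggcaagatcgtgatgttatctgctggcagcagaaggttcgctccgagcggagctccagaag

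The TGFB2 window held the element once, on the strand shown, with its first base 53 bases before the start. The TGFB1 window held no match on either strand. The element occurred in 16.9% of all 35116 windows in the table, and in 4 of the 25 windows of the 10 genes, which belonged to 3 of them (TGFB2, TGFBR1 and SMAD3). The palindrome GTCTAGAC, another SMAD element, was in 0 of the 25 windows and in 0.202% of all windows. The base composition of the windows also differed, with 77.3% G and C for TGFB1 and 51.7% for TGFB2. A match is a description of the sequence and does not show binding.

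The FPKM of TGFB1 was 19.0 and 19.5 in the TCP libraries and 41.0 and 41.2 in the polymer X libraries. Both spheroid libraries therefore lay above both control libraries, with a gap far wider than that between replicates. The mean rose from 19.3 ± 0.400 (SD, n = 2) to 41.1 ± 0.164 (SD, n = 2), 2.13-fold. All genes were tested with limma after a log2(FPKM + 1) transformation, and the log2 fold change of TGFB1 was 1.05 (standard error 0.05, adjusted p = 1.4e-07). Of all tested genes, 90.0% had a lower log2 fold change than TGFB1. A library mean of RNA cannot tell fewer cells of a kind from less RNA per cell, and this holds for every result here.

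TGFB2 stood at an FPKM of 7.99 and 8.35 on TCP and at 0.651 and 0.599 on polymer X. In tags, this was 1814 and 2216 against 154 and 144, so the low level in spheroids still rested on more than 100 tags in each library. The mean fell from 8.17 ± 0.251 (SD, n = 2) to 0.625 ± 0.037 (SD, n = 2), 13.1-fold lower. Its log2 fold change was -2.50 (standard error 0.07, adjusted p = 5.8e-09 from limma), and 0.368% of the tested genes had a lower value. With a pseudocount of 0.1 in place of 1, the log2 fold change was -3.51. Without either TCP library, TGFB2 had an FPKM of 1 or more in a single library and was not tested.

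TGFB3, a ligand needed for closure of the palate, was scarce in both groups. It gave an FPKM of 0.224 and 0.307 on TCP and of 0.616 and 0.529 on polymer X, from 30 and 48 tags and from 86 and 75 tags. The groups did not overlap. In raw tags, the counting intervals of TCP replicate 2 (35.4 to 63.6 tags, exact Poisson, 95%) and polymer X replicate 2 (59.0 to 94.0) did. These 2 libraries differ in depth (44917000 and 40684000 tags), so an overlap in raw tags does not compare levels. Since no library reached an FPKM of 1, TGFB3 was the single member left out of the test. In the fit with no filter on low values, its log2 fold change was 0.31 (adjusted p = 0.0048 from limma). Adding 1 before the logarithm understates changes of such low values, and the ratio of the polymer X mean to the TCP mean was 2.16. With the FPKM of all its transcripts summed, TGFB3 was tested, with a log2 fold change of 0.57 (adjusted p = 0.0020 from limma).

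The mixture of ligands thus differed between the groups. TGFB1 made up 69.8% and 69.3% of the summed FPKM of the 3 ligands on TCP and 97.0% and 97.3% on polymer X. TGFB2 made up 29.4% and 29.6% on TCP and 1.54% and 1.42% in the spheroids, where it was as scarce as TGFB3 (1.46% and 1.25%). The summed ligand FPKM was 27.2 and 28.2 on TCP and 42.2 and 42.3 on polymer X, so the total was higher in the spheroids although TGFB2 was nearly lost. These are values without a test, since the smallest two-sided p of an exact permutation test in this design is 0.33. When the FPKM of all transcripts of a gene was summed, which counts shared tags once per listed transcript, the share of TGFB1 was 53.1% ± 0.431 (SD, n = 2) on TCP and 93.5% ± 0.594 (SD, n = 2) on polymer X. TGFB1 has 1 listed transcript, TGFB2 has 2 and TGFB3 has 3.

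**Figure D1:**
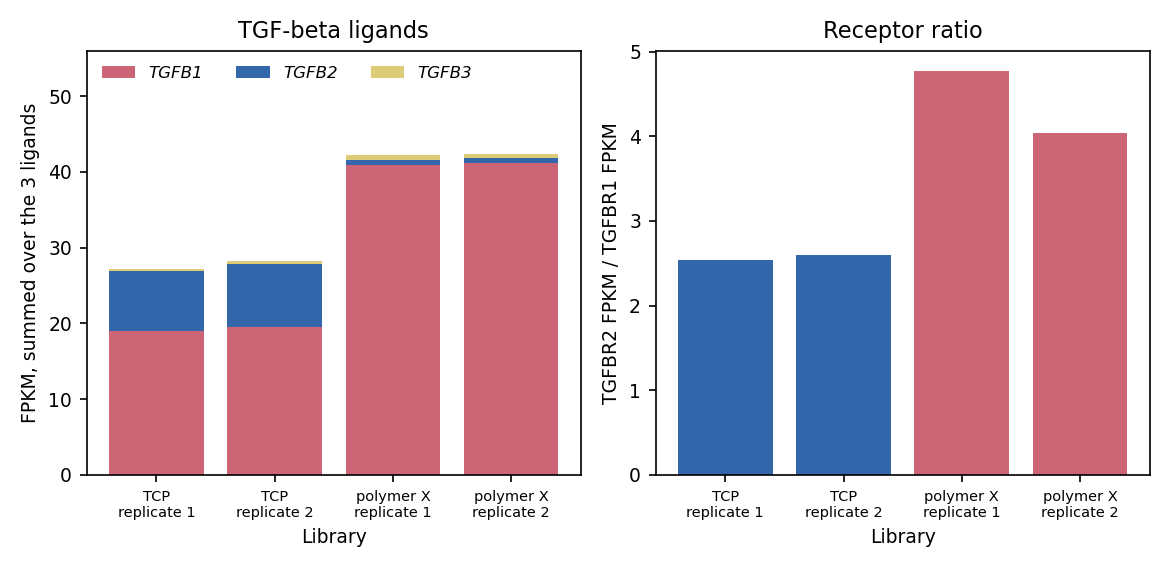
FPKM of the 3 TGF-beta ligands stacked in each library (left) and the ratio of TGFBR2 to TGFBR1 FPKM in each library (right), for 2 TCP and 2 polymer X libraries. TGFB2 forms 29.4% and 29.6% of the stack on TCP and 1.54% and 1.42% on polymer X, and the receptor ratio is 2.54 and 2.60 against 4.77 and 4.04.

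The signaling receptors did not move together. TGFBR2 (NM_003242, chromosome 3, 30647994 to 30735633), the type II receptor that binds the ligand first, had an FPKM of 15.9 and 16.4 on TCP and of 28.4 and 25.8 on polymer X. The spheroid libraries were both higher, and they differed more from each other than the control libraries did. The ratio of the means was 1.67, and the log2 fold change was 0.71 (standard error 0.06, 95% confidence interval 0.56 to 0.85, adjusted p = 5.8e-06 from limma), which is under the minimum of 1 used for a call.

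TGFBR1 (NM_001130916, chromosome 9, 101867371 to 101916473), the type I receptor kinase that phosphorylates SMAD3, gave 6.27 and 6.31 on TCP and 5.96 and 6.38 on polymer X. Here the TCP values lay between the polymer X values, so the groups overlapped. The log2 fold change was -0.02 with a 95% confidence interval of -0.18 to 0.13 (adjusted p = 0.75 from limma), and its sign changed when library medians were equalized (0.012) and without polymer X replicate 1 (0.018). As a result of the different behavior of the receptors, the ratio of TGFBR2 to TGFBR1 was 2.54 and 2.60 on TCP and 4.77 and 4.04 in the spheroids.

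TGFBR3 (NM_003243, chromosome 1, 92145900 to 92351836), the coreceptor betaglycan, which presents TGFB2 to the type II receptor, was low in all libraries. Its FPKM was 1.08 and 1.12 on TCP and 1.03 and 1.03 on polymer X. The log2 fold change was -0.05 with a 95% confidence interval of -0.23 to 0.13 (adjusted p = 0.58 from limma). Under quantile normalization it was -0.56 (adjusted p = 2.6e-04 from limma), and in the other fits it did not pass.

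The promoter of TGFBR2 is listed with 2 starts. The window of the downstream start is shown because it held a match to TGACTCA, the element of AP-1, a factor that binds DNA together with SMAD proteins at many genes. It is read here as the reverse complement, which capitals mark.

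TGFBR2, chr3:30606351-30606650, plus strand: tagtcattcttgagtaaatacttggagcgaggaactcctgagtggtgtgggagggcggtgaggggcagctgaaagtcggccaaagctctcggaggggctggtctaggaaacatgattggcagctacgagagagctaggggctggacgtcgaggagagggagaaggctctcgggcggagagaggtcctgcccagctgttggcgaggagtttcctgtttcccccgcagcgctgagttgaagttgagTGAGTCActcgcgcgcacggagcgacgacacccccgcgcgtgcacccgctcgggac

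The match began 6 bases before the start. This element was in 4.95% of all windows and in 2 of the 25 windows of the members, the other belonging to SMAD3.

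The transducer SMAD3 (NM_005902, chromosome 15, 67358195 to 67487533) had an FPKM of 17.5 and 18.4 on TCP and of 13.1 and 14.1 on polymer X. Both spheroid values were below both control values. The log2 fold change was -0.37 (95% confidence interval -0.52 to -0.23, adjusted p = 4.1e-04 from limma).

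SMAD7 (NM_001190822, chromosome 18, 46446223 to 46475703) encodes the inhibitory SMAD that blocks the type I receptor. It stood at 17.3 and 20.1 on TCP and at 10.6 and 10.4 on polymer X. The TCP libraries were the more variable group, and still the lower of them lay well above both spheroid libraries. With a ratio of the TCP mean to the polymer X mean of 1.78, the log2 fold change was -0.77 (95% confidence interval -0.94 to -0.60, adjusted p = 9.1e-06 from limma), and it was -0.87 and -0.67 without TCP replicate 1 and 2. The ratio of SMAD3 to SMAD7 FPKM was 1.01 and 0.917 on TCP and 1.24 and 1.35 on polymer X.

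TGFBI (NM_000358, chromosome 5, 135364584 to 135399507) encodes a secreted matrix protein that binds integrins and was named for its induction by TGF-beta. It was the most abundant member in every library, with an FPKM of 156 and 154 on TCP and of 109 and 108 on polymer X. The log2 fold change was -0.51 (95% confidence interval -0.63 to -0.38, adjusted p = 1.8e-05 from limma), and under quantile normalization it was -0.16.

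SKIL (NM_005414, chromosome 3, 170075473 to 170114637) encodes SnoN, a repressor that binds SMAD proteins. Its FPKM was 8.86 and 8.87 on TCP and 7.42 and 7.28 on polymer X. The difference was small but wider than the gap between replicates, with a log2 fold change of -0.24 (95% confidence interval -0.38 to -0.10, adjusted p = 0.0058 from limma).

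Of the 9 tested members, 1 was called higher and 1 lower, which required an adjusted p under 0.05 and a log2 fold change of 1 or more in either direction. Over all tested genes, 10.7% were called higher and 9.45% lower, so calls were about as frequent among the members as elsewhere. With the adjusted p alone, 2 members were higher (TGFB1 and TGFBR2) and 5 were lower (TGFB2, SMAD3, SMAD7, TGFBI and SKIL), against 37.4% higher and 43.6% lower over all tested genes. The groups did not overlap for 8 of the 9 members, and for 90.4% of all tested genes. The members had a median log2 fold change of -0.24, against -0.06 over all tested genes.

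**Figure D2:**
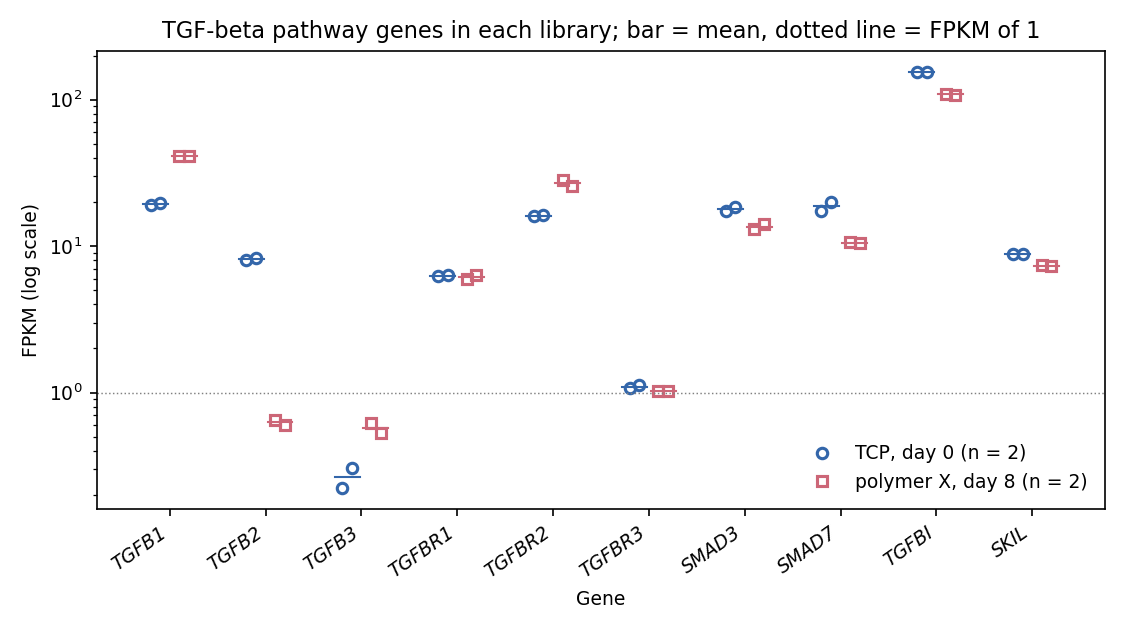
FPKM of each of the 10 genes on a log axis, with 2 TCP libraries (circles) and 2 polymer X libraries (squares) and a bar at the mean of each group. TGFB2 drops from 7.99 and 8.35 to 0.651 and 0.599, TGFB1 and TGFBR2 lie higher on polymer X, and the points of TGFBR1 overlap.

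Levels were ordered differently in the groups. On TCP, TGFBI was followed by TGFB1, SMAD7, SMAD3 and TGFBR2, with means between 16.2 and 19.3, and SMAD7 overlapped with both TGFB1 and SMAD3. SKIL, TGFB2 and TGFBR1 came next at 8.86, 8.17 and 6.29, with no overlap between neighbors, followed by TGFBR3 at 1.10. On polymer X, TGFB1 and TGFBR2 (41.1 and 27.1) stood apart from SMAD3, SMAD7, SKIL and TGFBR1 (13.6, 10.5, 7.35 and 6.17). TGFB2 fell behind TGFBR3 (1.03) to the level of TGFB3, with which its libraries overlapped.

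The choice of transcript had little effect on the members. Over the listed transcripts, the log2 fold change lay between -2.50 and -2.49 for the 2 transcripts of TGFB2, was 0.71 for both of TGFBR2, and lay between -0.78 and -0.77 for the 4 of SMAD7. It lay between -0.37 and -0.30 for the 4 of SMAD3, and between -0.24 and -0.21 for the 4 of SKIL. Transcripts of a gene share most of their tags and are not independent. No other gene listed in the file overlapped the span of a member, although tags were counted without regard to strand.

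**Figure D3:**
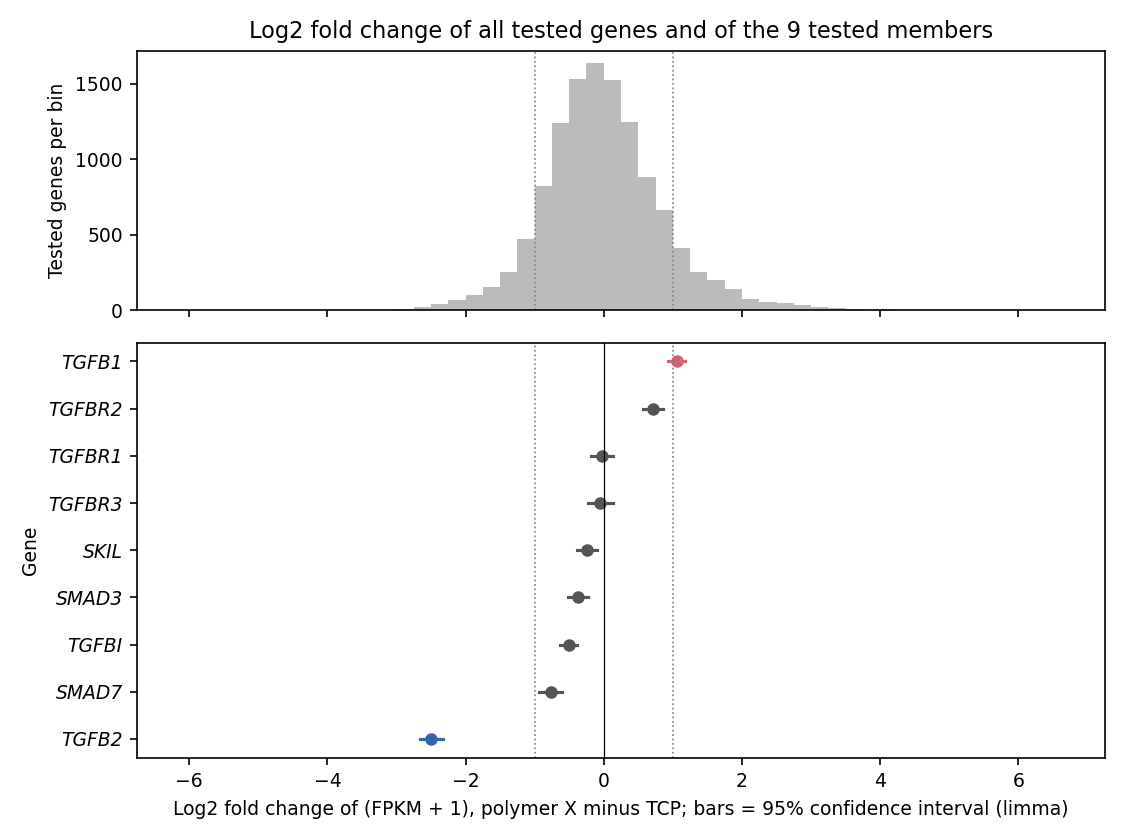
Number of tested genes in bins of log2 fold change (top) and the log2 fold change of the 9 tested members with 95% confidence intervals from limma (bottom), polymer X minus TCP on the scale of log2(FPKM + 1), with dotted lines at -1 and 1. TGFB1 at 1.05 (interval 0.93 to 1.18, which includes 1) and TGFB2 at -2.50 pass the lines, and the intervals of TGFBR1 and TGFBR3 include 0.

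Other genes of the pathway were taken from 3 lists. The first holds genes for storage of the latent ligand and its activation. Of its 10 genes, 8 were tested, and 4 were called higher and 1 lower (median log2 fold change 0.70). Among all tested genes, 10.7% were called higher and 9.45% lower, with a median of -0.06. The 3 latent TGF-beta binding proteins of the list rose together. LTBP2, of the same family but placed in another list, did not rise. It was too low for the test, at 0.868 and 0.761 on TCP and 0.581 and 0.444 on polymer X. LTBP1 had an FPKM of 13.4 and 13.2 on TCP and of 76.9 and 75.4 on polymer X (log2 fold change 2.43, adjusted p = 1.4e-09 from limma). LTBP3 rose from 8.66 ± 0.260 (SD, n = 2) to 38.2 ± 0.286 (SD, n = 2), and LTBP4 from 7.46 ± 0.398 (SD, n = 2) to 33.3 ± 1.45 (SD, n = 2), with a log2 fold change of 2.02 for both. ITGB8 encodes the beta subunit of an integrin that activates latent TGF-beta. It rose from 1.18 and 1.27 to 6.46 and 5.97, a log2 fold change of 1.70.

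THBS1 encodes thrombospondin, a matrix protein that can release active TGF-beta, and it was the called gene of the list that fell. Its FPKM was 116 and 124 on TCP and 0.765 and 0.620 on polymer X. Its log2 fold change was -6.16 (adjusted p = 6.1e-11 from limma). The spheroid values rested on 221 and 182 tags. The other integrin subunits of the list were lower without being called, with log2 fold changes of -0.97 for ITGB6 and -0.50 for ITGAV. That of ITGB6 passed -1 in 5 of the 12 fits in which it was tested. FURIN, the protease that cleaves the propeptide, was at -0.29 and under quantile normalization at -0.066. LRRC32, which anchors latent TGF-beta at the cell surface, was too low for the test, with 2 and 0 tags on TCP and 57 and 78 on polymer X, and NRROS had at most 5 tags in any library.

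In the second list, of accessory receptors and regulators of SMAD proteins, all 18 genes were tested, and 1 was called higher and 4 lower (median log2 fold change -0.34). Shares over all tested genes were 10.7% higher and 9.45% lower, with a median of -0.06. The called genes that fell are known to restrain the pathway. Other restraining genes of the list were not called, with log2 fold changes of 0.25 for TGIF1, -0.19 for SKI and -0.27 for SMURF1. The values were -0.42 for PPM1A and -0.53 for LEMD3. The remaining uncalled genes of the list went both ways, from 0.69 for ENG to -0.70 for USP15. PMEPA1, a target of TGF-beta that limits SMAD activation, fell from 30.1 and 32.2 to 10.8 and 10.0 (log2 fold change -1.49, adjusted p = 4.3e-08 from limma). STRAP, which helps SMAD7 at the receptor, fell from 66.9 ± 1.72 (SD, n = 2) to 28.3 ± 2.39 (SD, n = 2). SMURF2, a ubiquitin ligase for receptors and SMAD proteins, fell from 25.9 ± 0.747 (SD, n = 2) to 11.3 ± 0.189 (SD, n = 2). BAMBI, a decoy receptor, was at 10.8 in both TCP libraries and at 4.50 and 4.85 on polymer X. Log2 fold changes were -1.22 for STRAP, -1.12 for SMURF2 and -1.06 for BAMBI. Under quantile normalization, STRAP (-0.93) and SMURF2 (-0.97) were no longer called.

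TGIF2, a repressor that binds SMAD proteins, was the gene of this list called higher, from 3.31 and 3.84 to 9.04 and 7.72 (log2 fold change 1.04). It lost the call under quantile normalization, without TCP replicate 1 and without polymer X replicate 1, where its value was lowest (0.93). For SMAD2 and SMAD4, which carry the signal together with SMAD3, the log2 fold changes were 0.12 (95% confidence interval -0.04 to 0.27) and -0.08 (-0.22 to 0.06), with an adjusted p of 0.15 and 0.24 from limma.

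**Figure D4:**
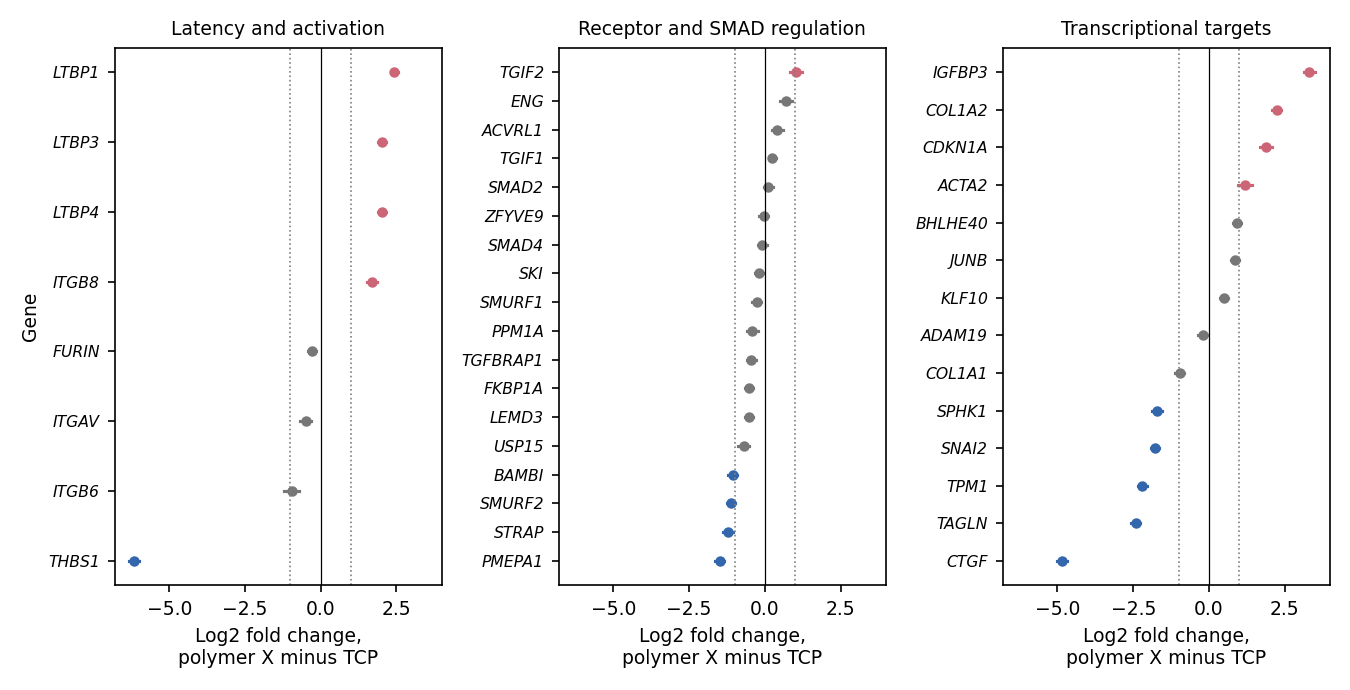
Log2 fold change on the scale of log2(FPKM + 1), polymer X minus TCP, with 95% confidence intervals from limma for tested genes of 3 lists of the TGF-beta pathway (1 target is not drawn), with dotted lines at -1 and 1. LTBP1, LTBP3 and LTBP4 lie at 2.02 or more, THBS1 at -6.16, and the transcriptional targets spread from CTGF at -4.86 to IGFBP3 at 3.32.

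The third list holds genes whose transcription TGF-beta is known to change, and these went both ways. Of its 18 genes, 15 were tested, and 4 were called higher and 6 lower (median log2 fold change -0.20). The shares over all tested genes were 10.7% and 9.45%. CTGF, a matricellular protein, fell from 49.5 and 49.7 to 0.845 and 0.652, a log2 fold change of -4.86 (adjusted p = 2.1e-10 from limma). The spheroid values rested on 79 and 62 tags. The cytoskeletal genes TAGLN and TPM1 fell from 17.8 ± 0.110 to 2.54 ± 0.135 and from 195 ± 1.45 to 42.0 ± 3.10 (SD, n = 2 in each). SNAI2 and SPHK1 were also called lower, at -1.77 and -1.70, and SNAI2 encodes a transcription factor of epithelial-mesenchymal transition. Many of these genes also respond to other pathways, so the list does not read TGF-beta alone.

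IGFBP3, a binding protein for insulin-like growth factors, rose most in this list, from 106 and 107 to 993 and 1155 (log2 fold change 3.32, adjusted p = 1.9e-09 from limma). COL1A2 rose from 8.58 ± 0.240 (SD, n = 2) to 44.0 ± 2.58 (SD, n = 2), whereas COL1A1, the partner chain of type I collagen, had a log2 fold change of -0.96 and was called lower in 2 of 13 fits. CDKN1A, the cell cycle inhibitor p21, rose from 3.00 and 2.33 to 12.4 in both spheroid libraries, with a log2 fold change of 1.88. ACTA2 was called higher from low values (0.505 and 0.609 on TCP, 2.28 and 2.85 on polymer X). With both TCP values under 1, it passed the filter through the polymer X libraries alone. It was not tested without either of them. Its value is uncertain because actin genes share sequence, and it was not called under quantile normalization (0.79). BHLHE40, JUNB and KLF10 lay between 0.48 and 0.91 and were not called, although BHLHE40 (1.25) and JUNB (1.20) passed under quantile normalization. SNAI1 and LTBP2 were not tested, and CDKN2B had no tag in any library, which allows an FPKM of up to 0.020. The fibroblast marker DCN was higher in the same libraries as COL1A2, LTBP1 and ACTA2, while THY1 and PDGFRB were at or under 0.184 in every library, and the part of such a cell type in these results was not tested.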

How the data were processed

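RNA-seq was performed on SKOV3 cells in 4 libraries, 2 per group, and the labels do not say whether replicates came from separate cultures, so p-values may measure technical spread. The authors deposited FPKM values per RefSeq transcript of hg19, made with HOMER from tags on exons of both strands and rounded to 3 decimals. The submitters' processing notes also name STAR 2.4.0 and DESeq. Tag numbers were recovered from values of transcripts of at most 1500 bases, of which 100% lay within 0.1 of a whole number. They cover counting error only.

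The 11964 symbols with an FPKM of at least 1 in 2 or more libraries were tested on log2(FPKM + 1), a scale that understates changes of low genes, with limma 3.58.1 in R 4.3.3 (mean-variance trend, Benjamini-Hochberg adjustment). Genes were called at an adjusted p under 0.05 with a log2 fold change of 1 or more in either direction. The procedure was also run on simulated tags with a fixed spread between replicates, which checks the procedure and not the calls in these data. The members and the 3 lists were chosen with earlier results of these data known, and the lists come from general knowledge. All members are named, with the 4 called genes of largest change in each direction of each list; other genes were chosen after their values were seen. Alternatives were another pseudocount, filters, scalings, the replicate block, summed transcripts, no variance trend, fold change minimums and each library left out. Plots were drawn with matplotlib 3.10.9. Protein sequences were not used here, and 1 gene of the target list is counted with its list but not reported here.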

Additional observations from a re-analysis of the deposited data

How the results depend on the processing

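The direction of 8 of the 9 tested members held under the alternatives in which they were tested, and the exception was TGFBR1, at 0.012 with median scaling and between -0.067 and 0.018 with each library left out. TGFB1 was called in 13 of 13 fits (1.03 to 1.30) and TGFB2 in 10 of 10 (-3.51 to -2.47). At a mean FPKM of at least 5, TGFB2 was not tested, so 0 members were called lower, and 702 genes in all were called higher. Fits without 1 library assume that the lone library of a group varies like the others.

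With no fold change minimum, calls were 2 higher and 5 lower for the members, 4 lower for latency and activation, 4 higher and 11 lower for receptor and SMAD regulation, 7 higher for targets, and 4477 higher and 5212 lower over all genes. With a minimum of 2 on the log2 scale, they were 0 higher for the members, 0 and 0 for receptor and SMAD regulation, 2 higher for targets, and 281 and 150 over all genes. Latency and activation had 2 called lower with a pseudocount of 0.1, quantile normalization or summed transcripts. Receptor and SMAD regulation had 2 called higher with a pseudocount of 0.1, and 0 higher and 2 lower under quantile normalization. With each library left out, calls ranged from 0 to 1 for members lower, 0 to 2 for latency and activation lower, and 0 to 1 for receptor and SMAD regulation higher. TGFB2, THBS1 and CTGF need both TCP libraries to pass the filter, and ACTA2 needs both polymer X libraries. TGIF2 lost its call without TCP replicate 1 or polymer X replicate 1, and ITGB6 passed -1 without TCP replicate 2 or polymer X replicate 1.

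Summing transcripts moved the difference between polymer X and TCP from 27.6 to 40.4 percentage points for the share of TGFB1, from -28.0 to -42.0 for TGFB2 and from 0.40 to 1.59 for TGFB3, and that of the receptor ratio from 1.83 to 1.25.

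With the replicate number as a block, 1 member was called higher and 1 lower, and the block changed no other call. Deviations of same-numbered libraries correlated at 0.093, so no pairing was assumed. Scaling moved the median of all tested genes by under 0.1. Depth limits TGFB3, LRRC32 and NRROS.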

Other observations

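Genes near the members were read after the values of the members were seen, without a test of the neighborhood. Within 100 kb of a member, 27 other genes were listed, of which 18 were tested, 3 were called higher and 3 lower, against 10.7% and 9.45% of all tested genes, so these counts are near the background. The neighbors of TGFB1 on chromosome 19 went both ways. AXL, a receptor tyrosine kinase gene 68556 bases from TGFB1, had an FPKM of 76.3 and 80.9 on TCP and of 7.05 and 7.81 on polymer X (log2 fold change -3.24), and HNRNPUL1, at 22540 bases, had a log2 fold change of -1.27. TMEM91 and BCKDHA, at 10083 and 43906 bases, were called higher at 1.82 and 1.30, while B9D2, at 534 bases, was at 0.46 and was not called. RRP15, the listed neighbor of TGFB2 at 7301 bases, had an FPKM of 3.34 and 3.51 on TCP and of 1.43 and 1.34 on polymer X (log2 fold change -0.89, not called). Near SMAD7, CTIF was called higher (1.18), and near SMAD3, AAGAB was called lower (-1.23).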
